A study of Mus musculus with 6 samples.

Results

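The major urinary proteins are small secreted lipocalins, barrel-shaped proteins that carry small hydrophobic molecules. In mice the liver makes most of them, they pass into the urine, and there they bind and slowly release volatile pheromones. Their genes form a dense array on chromosome 4, and many copies are nearly identical. Male liver makes more of them than female liver, under pulsed growth hormone acting through the transcription factor STAT5B, with further control by thyroid hormone and glucocorticoid.

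The family is described here through 10 genes, Mup1, Mup3, Mup7, Mup9, Mup10, Mup11, Mup17, Mup19, Mup20 and Mup21, which were taken by name from the 25690 rows of the deposited table. The table holds 11 further Mup rows, so the 10 genes are part of 21. RNA of hepatic tissue was sequenced from mice with a hepatic FTO knockout (3 libraries) and from wild type control mice (3 libraries). FTO is an enzyme that removes methyl groups from adenosine in RNA, and the series asks how its loss in liver changes the transcriptome. The labels give no strain, age or sex, no driver of the knockout and no treatment. They do not say that each library came from a separate animal, so p-values measure the spread between these libraries, which may be technical.

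Values are FPKM, fragment counts scaled by transcript length and by the mapped fragments of the library. This scaling is meant to let levels be compared between genes. Among Mup genes the comparison is limited, since copies share sequence and many rows are listed at 0 in some libraries. Fto itself was at 1.79, 3.83 and 2.66 FPKM in FTO knockout replicates 1, 2 and 3, against 6.67, 6.02 and 6.40 FPKM in wild type replicates 1, 2 and 3. Low values were each read as 1 fragment, and only implied depths within a range set with the data seen were kept. Their medians were about 34100000 to 42500000 fragments per library. Only 49 to 60 of 964 genes per library fell in the range, so the depth depends on that range. The medians could fall nowhere else, so they are a rough guide and not a measure of depth. Every library expressed the Y-linked genes Kdm5d, Uty, Ddx3y and Eif2s3y, the lowest value being 1.97 FPKM, and Xist did not exceed 0.0662 FPKM. Of 10405 genes whose mean reached 1 FPKM, limma called 287 at an adjusted p under 0.05, which is 2.76% (1.11% higher and 1.65% lower in knockout). Fto was among those called lower (adjusted p 0.0386 in limma). Its adjusted p was 0.0662 to 0.146 without knockout replicate 1 or 3 or wild type replicate 1 or 2.

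In the 10 genes, 3 had values in every library and 7 did not. Mup20, which encodes darcin, a protein pheromone of male urine, rose about 4-fold in FTO knockout livers. Mup3 and Mup21 stood at about the same level in both groups. Mup1, Mup7, Mup9, Mup10, Mup11, Mup17 and Mup19 were listed at exactly 0 in all 3 knockout libraries and, apart from Mup17, also in 2 of the 3 wild type libraries.

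The letters of the coding sequences are shown because the 3 measured genes and the 7 genes with zeros differ in them. Each line holds 60 coding bases from the GENCODE M21 transcripts (mm10, chromosome 4, minus strand, 5′ to 3′), and capitals mark bases that depart from the majority base over all 21 Mup genes. The window was chosen as the stretch of the alignment in which the 10 genes depart most often.
Mup20: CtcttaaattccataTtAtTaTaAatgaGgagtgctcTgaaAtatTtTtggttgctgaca
Mup3: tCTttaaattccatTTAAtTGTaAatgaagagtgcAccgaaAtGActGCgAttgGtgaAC
Mup21: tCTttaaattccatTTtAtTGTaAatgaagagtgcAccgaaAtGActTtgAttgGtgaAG
Mup17: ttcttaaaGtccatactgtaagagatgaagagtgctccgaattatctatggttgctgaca
Mup11: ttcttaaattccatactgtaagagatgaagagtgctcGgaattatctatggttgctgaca
Mup9: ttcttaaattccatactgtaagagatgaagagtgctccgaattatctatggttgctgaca
In this stretch Mup20, Mup3 and Mup21 had 11, 20 and 18 departures, while Mup17 and Mup11 had 1 each and Mup9 had 0. Of the 21 genes, 15 are rows with a zero in some library, and these are much alike. They set the majority base, so their few departures follow from that choice of reference. Mup7 has the letters of Mup17 here, Mup1 those of Mup11, and Mup10 and Mup19 those of Mup9, so the 7 genes with zeros share 3 sequences.

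Over the whole coding sequence the genes with zeros again stood close together, while Mup20 stood apart from Mup3 and Mup21. The 7 genes with zeros were 93.26% to 99.63% identical to each other, over 21 pairs. The lowest values were those of Mup19 against Mup1, Mup7 and Mup9, at 93.26% to 94.15%. The longest annotated coding sequence was 708 bases for each of those genes and 564 for Mup19. All other pairs were 98.34% identical or more. Mup20 was 90.42% to 91.34% identical to the 15 Mup rows that had a zero in some library, Mup21 83.97% to 85.08% and Mup3 83.02% to 84.43%. Mup3 and Mup21 were 95.42% identical to each other. Mup20 was 87.18% identical to Mup3 and 87.55% to Mup21, less than to the rows with a zero. Of the 50-base windows of Mup20 transcripts, 49.5% occurred in no other annotated gene, against 86.7% for Mup3 and 80.7% for Mup21. Of the 879 windows of Mup20, 27 occurred in a Mup row with a zero in some library. The pseudogene Mup-ps19, which is not among the deposited rows, shared 422. For the genes with zeros the share was 38.4% for Mup1, 23.5% for Mup10, 22.2% for Mup11, 21.9% for Mup17, 20.9% for Mup9, 13.3% for Mup7 and 0 for Mup19. Over all 21 Mup rows, the 6 rows above 0 in every library had the 6 highest shares, 49.5% or more, and the 15 rows with a zero had 38.4% or less. Outside the family this did not hold for all such genes. The 14 other genes with a zero in some library but reaching 10 FPKM elsewhere had a median share of 88.4%, the lowest being 0. Only Alb among them reached 1000 FPKM, and its share was 100%. Several of the others, such as Rny1 and Gm27937, are annotated as miscellaneous RNA, so they are not close matches for the Mup rows. Among 10288 other tested genes the median share was 100%. The sources used here give neither the read length nor how reads that fit several copies were assigned, so the window of 50 bases was an arbitrary choice.

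**Figure D1:**
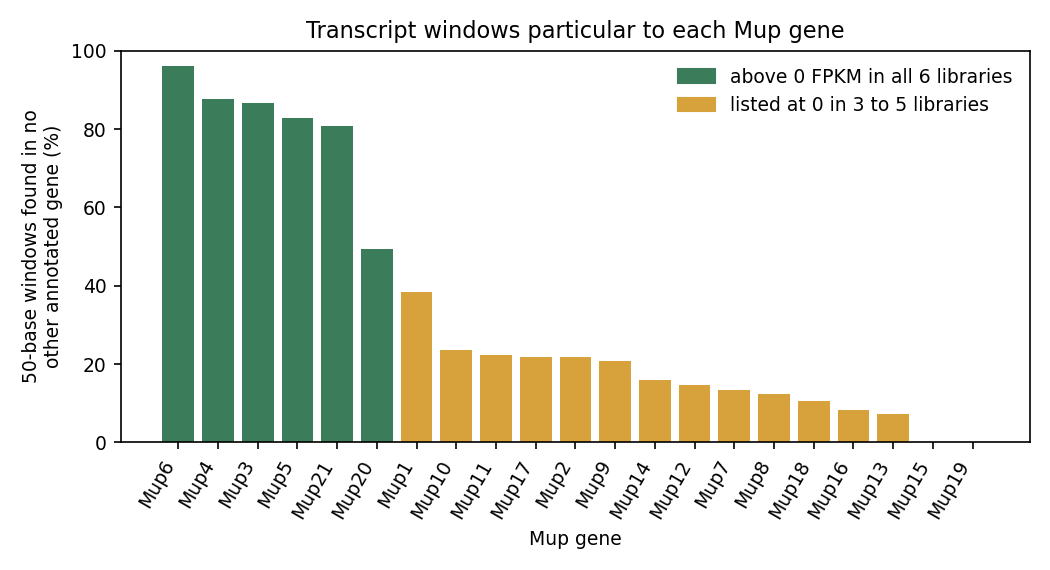
Share of 50-base transcript windows found in no other annotated gene (vertical axis, percent) for each of the 21 Mup genes, from highest to lowest. Green bars are genes above 0 FPKM in all 6 libraries (49.5% or more), and amber bars are genes listed at 0 in 3 to 5 libraries (38.4% or less).

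Mup20 (ENSMUSG00000078672, chromosome 4, 62050234 to 62054158, mm10, minus strand, protein coding) was the member that rose. It was at 33730.8, 14290.4 and 17962.2 FPKM in FTO knockout replicates 1, 2 and 3, against 6043.1, 5052.5 and 5257.1 FPKM in wild type replicates 1, 2 and 3. The lowest knockout library lay above the highest wild type library, and knockout replicate 1 was the highest by a wide margin. In bulk tissue, more cells of a type and more RNA per cell cannot be told apart. The mean was 21994.5 ± 10328 FPKM in knockout and 5451 ± 523 FPKM in wild type (SD, n = 3 each), a ratio of 4.04. The log2 change, on the log2(FPKM + 1) scale used for all log2 changes here, was 1.92 with an SE of 0.30 and a 95% interval of 1.22 to 2.61, and the adjusted p in limma was 0.0188. Mup20 ranked 2, 12 and 7 among all genes in knockout replicates 1, 2 and 3, and 18, 23 and 27 in wild type replicates 1, 2 and 3. Some Mup rows listed at 0 in every knockout library stood above Mup20 in wild type, such as Mup17 and Mup15 in replicate 2. Alb was listed at 0 in knockout replicate 3 and wild type replicate 1. The ranks of the groups are therefore not on equal terms. Without knockout replicate 3 or wild type replicate 2 the adjusted p was 0.0801 and 0.0734. It was 0.281 when genes of low level were tested too. Mup20 was the 1 member called higher among the 3 with values in every library, beside 1.11% of all tested genes.

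Mup3 (ENSMUSG00000066154, chromosome 4, 62083476 to 62087342) lies next to Mup20 in the array. It was at 12111.4, 13700.5 and 11975.1 FPKM in FTO knockout replicates 1, 2 and 3, against 12541.6, 13022.5 and 12150.4 FPKM in wild type replicates 1, 2 and 3. The groups overlapped almost completely. The log2 change was 0.00 (SE 0.14, 95% interval -0.31 to 0.31, adjusted p 0.998 in limma). Its coefficient of variation over the 6 libraries was 5.30%, against a median of 18.5% for the 193 genes that averaged 500 FPKM or more and had no zero.

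Mup21 (ENSMUSG00000066153, chromosome 4, 62147932 to 62150863) is the last gene of the array. It was at 742.2, 817.2 and 682.0 FPKM in FTO knockout replicates 1, 2 and 3, against 846.8, 815.0 and 751.8 FPKM in wild type replicates 1, 2 and 3. The groups overlapped, with a log2 change of -0.11 (SE 0.13, 95% interval -0.41 to 0.19, adjusted p 0.717 in limma). Within each library Mup20 was 279%, 104% and 150% of Mup3 in knockout replicates 1, 2 and 3, and 48.2%, 38.8% and 43.3% in wild type replicates 1, 2 and 3. Mup21 was 5.69% to 6.13% of Mup3 in knockout and 6.19% to 6.75% in wild type. For both ratios the groups did not overlap, and by FPKM 24.5% of tested genes did not overlap either. The ratio of Mup20 to Mup3 was higher in knockout. For Mup21 over Mup3 the gap was narrow, and no direction is read from it. Neither ratio was tested.

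**Figure D2:**
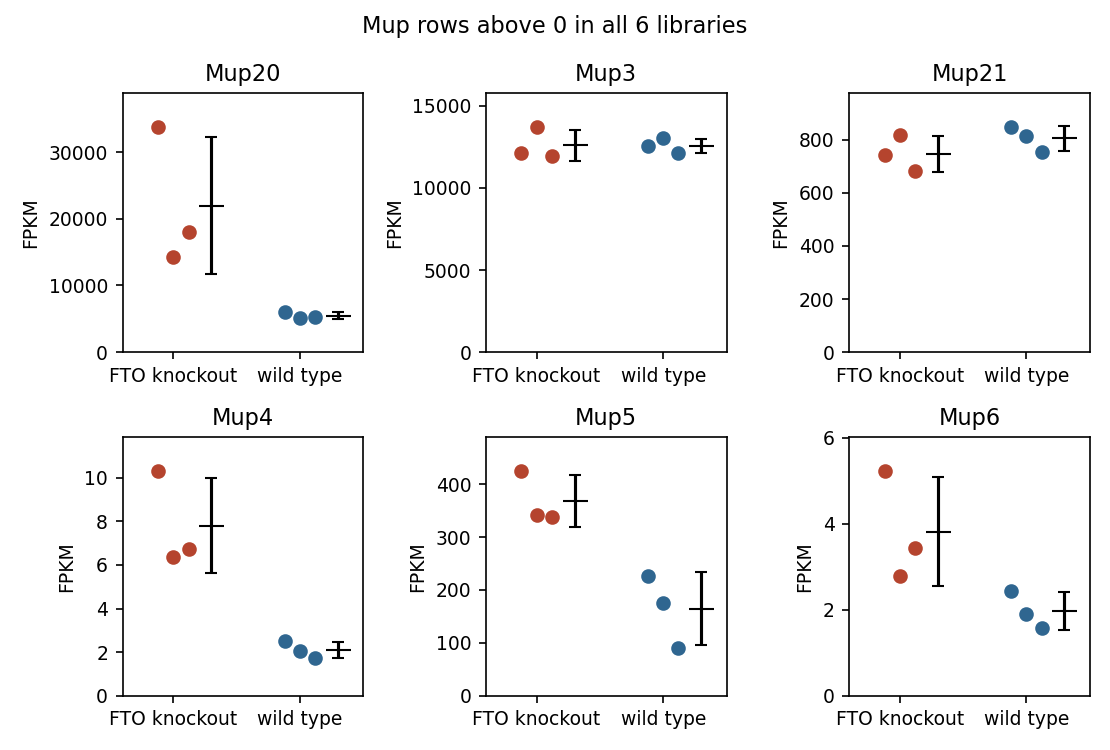
FPKM (vertical axis, linear from 0, a scale of its own in each panel) of the 6 Mup rows above 0 in every library, with FTO knockout libraries left and wild type libraries right; bars are mean ± SD (n = 3 each). Mup20, Mup4, Mup5 and Mup6 have every knockout library above every wild type library, while Mup3 and Mup21 overlap.

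The 7 members with zeros are given by library value, without a fold change. Mup17 (ENSMUSG00000096688, chromosome 4, 61591929 to 61595871) was listed at 0 in all 3 FTO knockout libraries, against 18963.2, 11432.1 and 3074.1 FPKM in wild type replicates 1, 2 and 3. Limma called it lower with an adjusted p of 0.000123, and this call rests on the listed zeros. It is therefore not read against the 1.65% of all tested genes called lower. The other 6 were listed at 0 in all 3 knockout libraries and in wild type replicates 1 and 2. In wild type replicate 3 alone they had values, which were 10219.3 FPKM for Mup11, 10062.2 for Mup10, 7421.4 for Mup9, 5666.0 for Mup19, 4296.1 for Mup7 and 4105.8 for Mup1. These 6 were not called (adjusted p 0.513 each in limma), and their mean reached 1 FPKM through that library only.

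A listed 0 need not mean absence of RNA, since the estimate itself may have failed. Of 137 genes at 1000 FPKM or more in some library, 16 were listed at 0 in another, and 15 of these were Mup rows. The other was Alb, which encodes albumin, a protein that all hepatocytes make, at 0 in knockout replicate 3 and wild type replicate 1. None of the 15 Mup rows had a value between 0 and 1000 FPKM in any library. In wild type replicate 1 all 18963.2 FPKM of these rows stood under Mup17, and in wild type replicate 2 the sum was 22567.6 FPKM under Mup17 and Mup15. In wild type replicate 3 it was 83657.8 FPKM spread over all 15 rows. The column sum of the whole table was also highest in wild type replicate 3, at 1076600 FPKM against 843847 to 902782 FPKM in the other libraries.

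**Figure D3:**
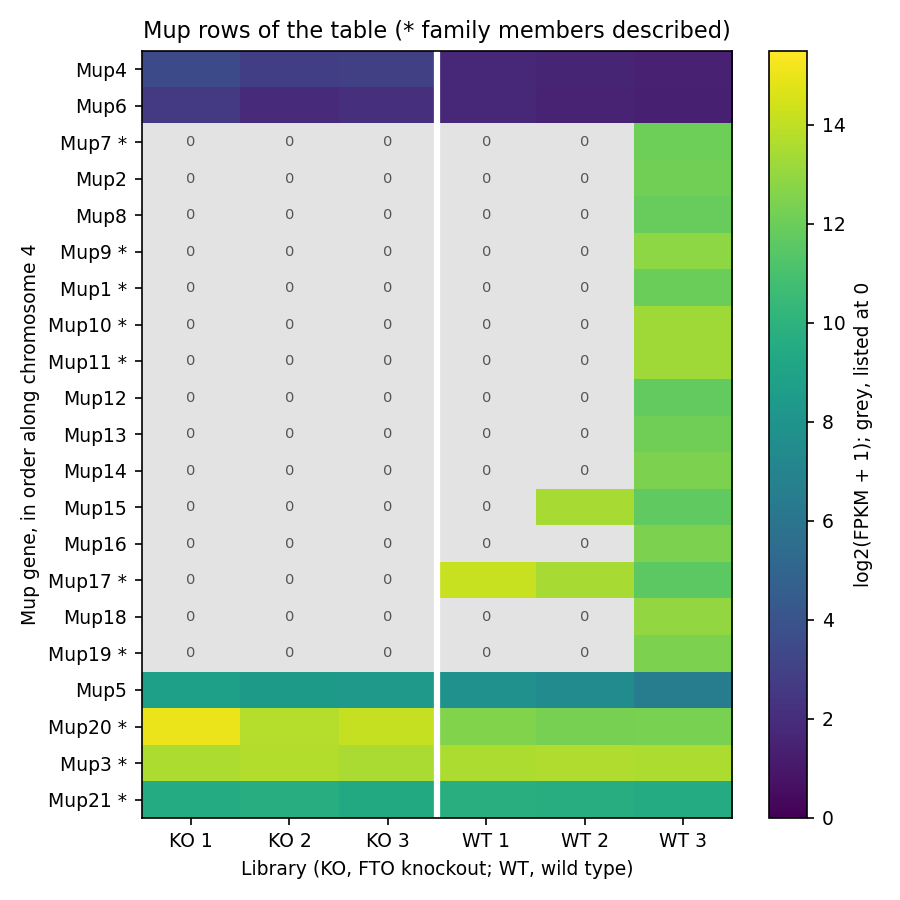
Level of the 21 Mup rows (vertical axis, in order along chromosome 4; asterisks mark the 10 members) in each library (horizontal axis, FTO knockout left, wild type right), as log2(FPKM + 1). Grey cells are listed at 0: 15 rows in all knockout libraries, 14 in wild type replicate 1, 13 in wild type replicate 2 and 0 in wild type replicate 3.

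As a result the summed level of the family depends on which rows are counted. Over the 6 Mup rows with values in every library the sum was 47025.4, 29159.3 and 30966.9 FPKM in FTO knockout replicates 1, 2 and 3, against 19663.6, 19069.7 and 18253.1 FPKM in wild type replicates 1, 2 and 3. Over all 21 rows it was the same in knockout, against 38626.8, 41637.3 and 101911 FPKM in wild type. The knockout sum was therefore higher in every library by the first count and overlapped wild type by the second. Mup20 made up 71.7%, 49.0% and 58.0% of the 6-row sum in knockout replicates 1, 2 and 3, and 30.7%, 26.5% and 28.8% in wild type replicates 1, 2 and 3.

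**Figure D4:**
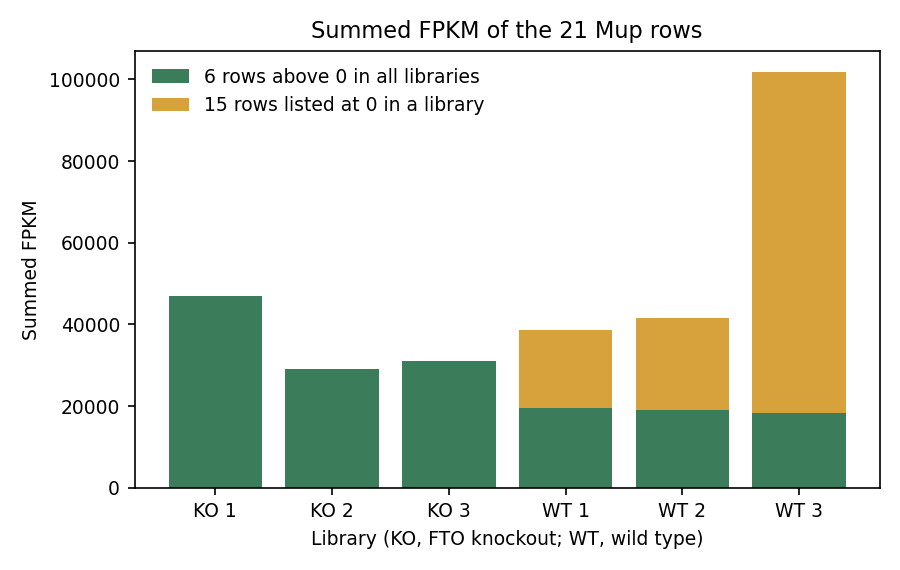
Summed FPKM (vertical axis) of the 21 Mup rows in each library (FTO knockout left, wild type right), split into the 6 rows above 0 in all libraries (green) and the 15 rows listed at 0 in a library (amber). The green part is 29159.3 FPKM or more in knockout and 19663.6 FPKM or less in wild type, and the amber part is 0 in knockout.

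The 3 further Mup genes with values in every library also had higher values in knockout. Mup4, a lipocalin known from nasal tissue and saliva more than from liver, was at 10.3, 6.38 and 6.71 FPKM in FTO knockout replicates 1, 2 and 3, against 2.50, 2.07 and 1.74 FPKM in wild type replicates 1, 2 and 3. It rose 3.72-fold (log2 change 1.49, SE 0.18, adjusted p 0.00723 in limma), and the call held with each library left out. Mup5 was at 425.5, 342.2 and 337.4 FPKM in knockout, against 227.1, 175.6 and 90.4 FPKM in wild type (ratio 2.24, adjusted p 0.0853), and was called without wild type replicate 1 (0.0392) or 3 (0.0275). Mup6 was at 5.23, 2.77 and 3.44 FPKM in knockout, against 2.44, 1.91 and 1.58 FPKM in wild type (ratio 1.93, adjusted p 0.129 in limma). Its lowest value corresponds to about 51 fragments at the inferred depth, which rests on the chosen range. With Mup20, 4 of the 6 rows had all knockout libraries above all wild type libraries, which 11.5% of tested genes had.

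Of 3 other expressed transcripts inside the array, 1 was lower in knockout and 2 were not called, beside 1.65% of all tested genes called lower. Gm21286, annotated as an unprocessed pseudogene (chromosome 4, 60836908 to 60839649, plus strand), was at 80.8, 60.1 and 51.7 FPKM in FTO knockout replicates 1, 2 and 3, against 144.8, 158.9 and 222.3 FPKM in wild type replicates 1, 2 and 3. It fell, with a log2 change of -1.44 (SE 0.22, adjusted p 0.0171 in limma); the adjusted p was 0.059 and 0.0801 without knockout replicate 2 or 3 and 0.0512 without wild type replicate 2. Gm13775, which lies beside Mup19, was at 205.9 to 292.3 FPKM in knockout and 306.7 to 448.2 FPKM in wild type (adjusted p 0.167). Gm13773, beside Mup1, was at 64.0 to 96.8 FPKM in knockout and 96.1 to 119.9 FPKM in wild type (adjusted p 0.197), and its groups overlapped. Of the 496 windows of Gm21286, 29.6% occurred in no other gene and 0 in a Mup row listed at 0. Of the 8 expressed genes that flank the array, Ptbp3, Hsdl2, Inip and Snx30 on one side and Slc31a2, Fkbp15, Slc31a1 and Cdc26 on the other, 0 were called by limma and 0 had an unadjusted p under 0.05, with log2 changes between -0.21 and 0.23.

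Among 22 tested regulators of Mup transcription and of growth hormone signalling, 2 were higher, 0 lower and 20 not called. Over all tested genes 1.11% were called higher and 1.65% lower. The median log2 change was 0.07, beside -0.00 over all tested genes. Socs2, a growth hormone target that restrains the receptor's signal, was at 5.65, 6.76 and 9.50 FPKM in FTO knockout replicates 1, 2 and 3, against 1.75, 1.51 and 3.10 FPKM in wild type replicates 1, 2 and 3 (log2 change 1.42, adjusted p 0.0212). Onecut1, a hepatocyte transcription factor, was at 6.93, 3.09 and 4.13 FPKM in knockout, against 1.46, 0.896 and 1.55 FPKM in wild type (log2 change 1.27, adjusted p 0.0391). Leaving out single libraries gave 0 to 4 higher genes, and 1 lower gene without wild type replicate 3. Socs2 was lost without knockout replicate 2 or 3 or wild type replicate 1 or 2 (adjusted p 0.0504 to 0.0803 in limma). Onecut1 was lost without knockout replicate 1 or 3 or wild type replicate 1 or 2 (0.0601 to 0.138). Stat5b was at 4.94 to 5.24 FPKM in knockout and 4.94 to 6.16 FPKM in wild type, and the receptor gene Ghr at 195.2 to 255.4 FPKM in knockout and 234.6 to 264.5 FPKM in wild type. Zhx2, a factor that influences Mup levels between mouse strains, was at 1.90 to 3.49 FPKM in knockout and 1.79 to 2.17 FPKM in wild type (adjusted p 0.398). The zinc finger genes Zfp455 and Zfp458 were under the 1 FPKM minimum and were not tested.

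Of 24 tested genes with higher expression in male liver, Mup genes left out, 7 were higher, 1 lower and 16 not called. Their median log2 change was 0.56. Over all tested genes 1.11% were called higher and 1.65% lower. Selenbp2, a selenium-binding protein gene, was at 270.8, 331.1 and 349.9 FPKM in FTO knockout replicates 1, 2 and 3, against 61.7, 80.8 and 70.9 FPKM in wild type replicates 1, 2 and 3 (adjusted p 0.000793). The protease inhibitor gene Serpina1e was at 6916 to 9579 FPKM in knockout and 1269.7 to 2356.6 FPKM in wild type, and the complement gene C8b also rose. The carboxylesterase gene Ces2e fell, to 58.2 to 70.4 FPKM in knockout, against 129.8 to 153.2 FPKM in wild type. Of 18 tested genes with higher expression in female liver, 0 were higher, 7 lower and 11 not called, beside the same shares over all tested genes. Their median log2 change was -0.68. The lower genes included the thioesterase genes Acot3 and Acot4, the peroxisomal transporter gene Abcd2 and the P450 gene Cyp2b9. For Acot4 the adjusted p in limma was 0.0596 without knockout replicate 1 and 0.0803 without knockout replicate 3. For Serpina1e it was 0.0504 without knockout replicate 3. Without knockout replicate 1 or 3 or wild type replicate 2, the counts were 3, 2 and 4 higher male genes and 3, 3 and 4 lower female genes, and 4 female genes were lower without knockout replicate 2. The median log2 change of the female list was -0.28 without wild type replicate 3. These lists were drawn up with earlier results of the same libraries known, so their direction is not independent evidence.

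Among 10 tested lipocalins other than Mup, 1 was higher, 1 lower and 8 not called, with a median log2 change of 0.12. Over all tested genes 1.11% were called higher and 1.65% lower. Apom, the apolipoprotein that carries sphingosine-1-phosphate, rose to 208.2, 235.3 and 228.2 FPKM in FTO knockout replicates 1, 2 and 3, against 82.0, 93.9 and 110.0 FPKM in wild type replicates 1, 2 and 3 (log2 change 1.23, adjusted p 0.00597 in limma), and the call held with each library left out. Obp2a, an odorant-binding lipocalin, fell to 0.845 to 2.25 FPKM in knockout, against 4.34 to 11.1 FPKM in wild type (adjusted p 0.0347); the adjusted p was 0.0531 to 0.139 without any 1 of the knockout libraries and 0.111 without wild type replicate 2. The abundant Rbp4, which carries retinol, was at 3783 to 4489 FPKM in knockout and 3516 to 4764 FPKM in wild type (adjusted p 0.890). Of 28 other secreted liver proteins, 1 was higher (Ahsg), 0 lower and 27 not called, beside the same shares over all tested genes. Their median log2 change was 0.22. Ahsg kept its call only without wild type replicate 3 among the 6 sets that leave out a library.

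The tested genes outside the family whose profiles lay nearest to that of Mup20 were Moxd1, the unnamed row ENSMUSG00000098117 and Cyp7b1. Nearness was the root mean square difference of log2(FPKM + 1) profiles over the 6 libraries, each centred on its own mean, and it was 0.179, 0.266 and 0.316 against a median of 1.05 over tested genes. Cyp7b1, an oxysterol hydroxylase gene, was at 302.7, 190.1 and 268.1 FPKM in FTO knockout replicates 1, 2 and 3, against 96.0, 63.7 and 48.4 FPKM in wild type replicates 1, 2 and 3 (adjusted p 0.0141 in limma; 0.0601, 0.0798 and 0.0512 without knockout replicate 1, knockout replicate 3 or wild type replicate 2). Moxd1, which encodes a copper monooxygenase-like protein, was at 4.64, 1.02 and 1.68 FPKM in knockout and at 0 to 0.00932 FPKM in wild type. Its log2 change was 1.64 (adjusted p 0.0487 in limma) and 4.32 with a pseudocount of 0.1. Its nearness to Mup20 therefore rests on the 1 added to FPKM. Without knockout replicate 3 or any 1 wild type library its adjusted p in limma was 0.0581 to 0.141. For Mup3 the nearest were Sirt7, Gm12668 and Cd82 (0.0299 to 0.0323, median 0.192), and for Mup21 they were Aarsd1, Vmac and Cobll1 (0.0261 to 0.0308, median 0.215).

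Markers of the labelled tissue were present in both groups. Of 15 tested hepatocyte markers 0 were called by limma (1 without wild type replicate 3), with a median log2 change of -0.00; 1 of them, Alb, carries the listed zeros given above, so no summed level is given. Beside this, limma called 1.11% of all tested genes higher and 1.65% lower. Of 11 Kupffer cell markers 0 were called and all 11 had log2 changes above 0. Log2 changes above 0 were found in 5176 of all 10405 tested genes. Of these markers 7 were called higher without wild type replicate 3 and 1 without knockout replicate 2. Without wild type replicate 3, 312 of all 10374 tested genes were called higher, against 115 with all libraries. The summed level of the Kupffer cell markers was 206.7 to 364.4 FPKM in FTO knockout and 71.7 to 248.1 FPKM in wild type. Adipocyte markers summed to 3.19 to 3.82 FPKM in knockout and 33.6 to 44.5 FPKM in wild type, with 2 of 3 tested lower. Cidea, which encodes a lipid droplet protein, made up most of the wild type sum, at 0.199 to 0.318 FPKM in knockout and 27.8 to 36.7 FPKM in wild type, and Cfd was the other lower gene. Adrb3 had the opposite direction and was not called, at 2.02 to 2.32 FPKM in knockout and 0.383 to 1.75 FPKM in wild type. No library exceeded 0.233 FPKM for Adipoq, Plin1 or Lep. The part of these markers in the difference of Mup20 was not tested.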

How the data were processed

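The deposited table gives FPKM for 25690 Ensembl gene rows in 6 libraries; per the submitters' processing notes TopHat2 2.1.0, HTSeq, Cufflinks 2.2.1 and mm10 were used, with no roles stated, and the sources used here give no annotation release. Groups follow the genotype label, and replicate numbers follow sample order. Symbols and coordinates came from GENCODE M21 (mm10), which matched 24853 rows; 46 of these carry a suffix on a repeated identifier and were given no symbol. The members and gene lists were chosen with earlier results of these data known.

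The 10405 genes averaging 1 FPKM or more were compared with limma 3.58.1 in R 4.3.3 on log2(FPKM + 1) by two-sided moderated tests (eBayes, trend = TRUE), with Benjamini-Hochberg adjustment over all of them, and called under 0.05. The script was tested on simulated data. Named genes are the 10 members, all other Mup rows, transcripts inside and genes beside the array, up to 4 called genes per list, and the 3 nearest profiles per measured member; not-called genes of lists and single marker genes were named after their values were seen. Coding sequences (the longest per gene) were aligned with MAFFT 7.526. Windows of 50 bases were compared over all annotated transcripts, sense strand. Fragments per library were inferred from low values among 964 genes with a single transcript, each read as 1 fragment, in a range set with the data seen. No counts were recovered for the table, so no count model was used. Alternatives were other normalizations, no filter, a pseudocount of 0.1, robust eBayes, zeros as missing and each library left out. One gene of the regulator list is not reported here.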

Additional observations from a re-analysis of the deposited data

How the results depend on the processing

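Limits: the precision is set by 3 libraries a group, and 7 of the 10 Mup members have values in too few libraries for a comparison. No paired analysis was possible because the replicate numbers follow sample order and pair no libraries. The count of called genes was 287 and fell to 79 with no filter on low values; it ran from 92 (without FTO knockout replicate 3) to 552 (without wild type replicate 3) with single libraries left out. The 2 called members, Mup20 and Mup17 (the call of Mup17 rests on listed zeros), became 1 with no filter (Mup17), 1 with listed zeros as missing (Mup20, since Mup17 then has no knockout value), and 1 to 2 with single libraries left out. The log2 change of Mup20 was 1.92 with no filter but no longer called (adjusted p 0.281), and 1.56 to 2.18 with single libraries left out. It was called under the other normalizations, robust eBayes, the pseudocount of 0.1 and zeros as missing, with adjusted p-values of 0.00717 to 0.0292. That of Mup3 lay around 0 throughout, at -0.040 under quantile normalization and from -0.061 to 0.036 with single libraries left out, and was never called. Why single settings end calls was not tested. With no filter on low values the adjusted p was also over 0.05 for Mup4 (0.11), Apom (0.0656), Obp2a (0.21), Socs2 (0.164), Onecut1 (0.214), Serpina1e (0.127), C8b (0.0943), Abcd2 (0.0909), Acot4 (0.126), Cyp2b9 (0.117), Ahsg (0.244), Gm21286 (0.138), Cyp7b1 (0.138), Moxd1 (0.245) and Fto (0.197). Ahsg also lost its call under quantile normalization (0.0933), equal-sum scaling (0.0529) and robust eBayes (0.0511), and Moxd1 under median-ratio scaling (0.051), quantile normalization (0.0561) and robust eBayes (0.0508). The values per list with a library left out, and those of genes other than the members, were added after seeing the data.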
